A study of Mus musculus with 112 samples.

Results

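C3H/HeJ hearts were compared with the hearts of the other inbred strains of this mouse series, on the control diet alone. The 8 arrays whose titles name C3H/HeJ control heart were set against 40 control arrays of 129S1/SvImJ, BALB/cJ, C57BL/6J, CBA/J and DBA/2J, 8 per strain. These are 48 of the 112 arrays of the series, and the arrays of the B6C3F1/J hybrid were not used. Every array held heart RNA (5 µg labeled) of 1 male mouse. The labels spell BALB/cJ as Balbc/J and C57BL/6J as C57BL6/J, and name no transgene, induced mutation or drug. All mice received 84 kcal per week of purified food up to 8 weeks of age, stayed on the control diet for the next 14 weeks and were killed at 22 weeks after a night without food. The BALB/cJ controls were given more food than the controls of the other strains, so strain and ration cannot be told apart there. The caloric restriction (CR) arm, with 8 further mice per strain, served as a separate set of animals in which the strains could be compared the same way. The CR rations also differed between strains. Those of 129S1/SvImJ and C57BL/6J were cut further partway through, and that of BALB/cJ was larger than in the other strains. Strain and ration cannot be told apart in that arm.

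C3H/HeJ is an old laboratory strain from the same founding crosses as CBA/J. It is known for a missense allele of Tlr4, the receptor for bacterial lipopolysaccharide, which leaves the mice unresponsive to endotoxin, and for the retinal degeneration allele of Pde6b, which CBA/J shares. It also carries an insertion in the glutamate receptor gene Gria4 and, with some other strains, a splice allele of Abcc6 that predisposes to calcification of the heart. Its major histocompatibility complex (MHC) is of the k type, as in CBA/J, whereas BALB/cJ and DBA/2J carry the d type and C57BL/6J and 129S1/SvImJ the b type. Inbred mice of a strain are close to genetically identical, so differences between strains hold inherited differences together with whatever the cages, litters and food of a strain had in common.

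Values are log2 signals of the Affymetrix Mouse Gene 1.0 ST array, on which a difference of 1 is a doubling. The quantity tested was the C3H/HeJ mean minus the mean of the 5 other strain means, written here as the C3H/HeJ difference. A gene was called when its p-value from limma, adjusted over all 19938 genes by the Benjamini-Hochberg method, was under 0.05. CBA/J control replicate 1 stood well apart. Its correlation with the average of the remaining CBA/J control arrays was 0.894, whereas the lowest such values in other strains were 0.963 in DBA/2J, 0.974 in BALB/cJ, 0.980 in C57BL/6J, 0.985 in C3H/HeJ (replicate 6) and 0.995 in 129S1/SvImJ. The amount of atrial tissue also varied between mice. The mean log2 signal of 11 atrial cardiomyocyte markers was 10.2 and 10.3 in C3H/HeJ replicates 4 and 6 and 8.24 in replicate 8, and it lay between 6.66 and 6.99 in the other 5 C3H/HeJ arrays. It ranged from 6.99 to 10.6 in C57BL/6J and only from 6.73 to 6.95 in 129S1/SvImJ. The 11 ventricular markers averaged between 11.3 and 11.8 in every C3H/HeJ array. They reached lower in 4 of the other strains. The range was 9.83 to 11.5 in C57BL/6J, 10.5 to 11.6 in CBA/J and 10.9 to 11.6 in DBA/2J. It was 10.9 to 11.7 in BALB/cJ and 11.6 to 11.7 in 129S1/SvImJ. By limma 0 of the 11 atrial markers were called, and 1 had an unadjusted p under 0.05. In such bulk samples, fewer cells of a type and less RNA per cell cannot be told apart.

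The heart of C3H/HeJ differed from the mean of the other strains at 856 of 19938 genes (4.29%), with 424 higher (2.13%) and 432 lower (2.17%). Most of these differences were small. Among called genes the median size was 0.355 on the log2 scale, and 18 genes were higher and 14 lower by more than 1. C3H/HeJ had the highest or the lowest of the 6 strain means at 592 of the called genes (69.2%), against 20.7% of all genes tested. The calls were made on these same means, so a larger share among them was built in. When CBA/J control replicate 1 was left out the count rose to 1306, and when all 40 arrays were treated as 1 group, so that the spread between the other strains entered the error, it fell to 213, each of them among the 856. It was 451 without C3H/HeJ replicates 4, 6 and 8, the arrays rich in atrial markers, of which 399 were among the 856. The number of arrays limits the precision.

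A strict view of what sets C3H/HeJ apart is given by the genes at which all 8 of its arrays lay beyond all 40 others. There were 16 such genes among 19938 (0.0802%), 15 of them higher in C3H/HeJ and 1 lower, and all 16 were called. The calls used the same arrays, so they add no separate support.

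**Figure D1:**
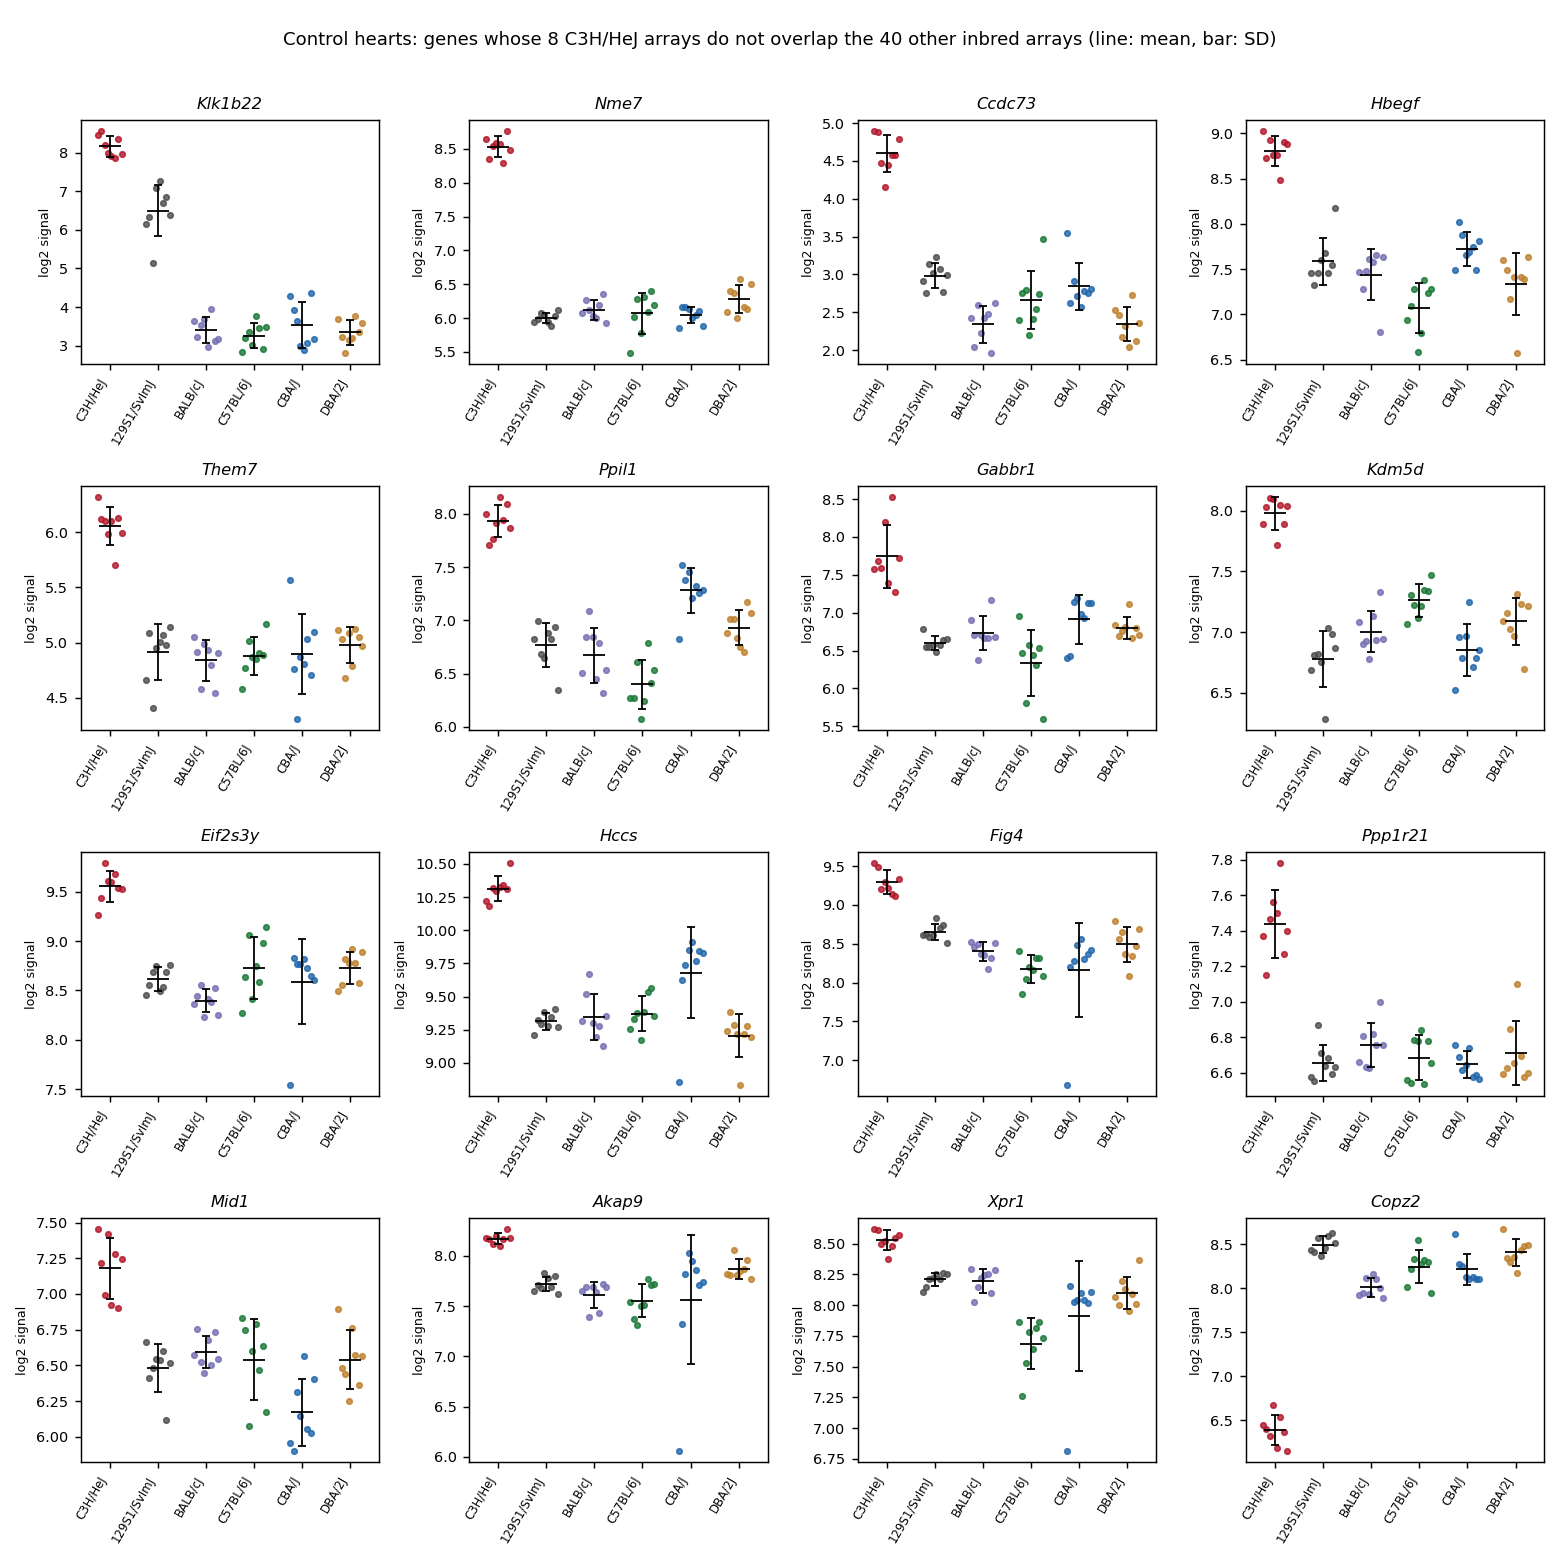
Log2 signal (vertical axis of each panel) of the 16 genes whose 8 C3H/HeJ control arrays did not overlap the 40 other inbred control arrays; each point is 1 mouse, the horizontal line is the strain mean and the bar its SD. The C3H/HeJ points (red, at the left of each panel) stand above all others in 15 panels and below all others in the panel for Copz2.

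Klk1b22 had the largest fitted difference. It encodes a glandular kallikrein, a secreted serine protease of a large mouse family that is best known from the salivary gland. In C3H/HeJ its signal ran from 7.86 to 8.56 with a median of 8.09. In 129S1/SvImJ it ran from 5.15 to 7.26 with a median of 6.54. In the other 4 strains no array exceeded 4.38, and the medians were 3.38 in BALB/cJ, 3.29 in C57BL/6J, 3.41 in CBA/J and 3.29 in DBA/2J. The strains thus fell into 3 levels, with C3H/HeJ highest and 129S1/SvImJ in between. The C3H/HeJ difference was 4.16 ± 0.165 (SE, 8 arrays against 40, adjusted p = 2.15e-25). Signals of this gene outside C3H/HeJ and 129S1/SvImJ were dim, below the 40th percentile of all genes (5.21), so no fold is given. C3H/HeJ exceeded 129S1/SvImJ by 1.67 (adjusted p = 9.6e-08). The kallikrein genes on either side of it were not called. They were dim, with C3H/HeJ means of 2.22 for Klk1b16 to 4.09 for Klk1b24, so a shared pattern could have been missed. Klk1b27 differed by 0.07 (adjusted p = 0.835), Klk1b16 by 0.07 (adjusted p = 0.843), Klk1b24 by 0.08 (adjusted p = 0.838) and Klk1b5 by 0.02 (adjusted p = 0.950). The members of this family are close in sequence, and a probe set can pick up more than 1 of them, so the assignment of the signal to Klk1b22 is uncertain.

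Nme7 encodes a protein of the nucleoside diphosphate kinase family that is found at microtubule organizing centers and in cilia. Its signal was 8.30 to 8.76 in C3H/HeJ (median 8.56). The medians of the other strains lay close together, from 6.01 in 129S1/SvImJ to 6.26 in DBA/2J, and the highest of the 40 arrays reached 6.58. The difference was 2.43 ± 0.0727 (adjusted p = 2.09e-30), 5.38-fold, and it had the smallest adjusted p of all genes. Its neighbors on the chromosome, Blzf1 (-0.13, adjusted p = 0.398) and Atp1b1, the beta subunit of the sodium pump (0.07, adjusted p = 0.708), were not called.

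Copz2, which encodes a zeta subunit of the COPI coat of Golgi vesicles, was the only gene of this kind that was lower. Its signal was 6.16 to 6.68 in C3H/HeJ (median 6.39) and 7.89 to 8.67 in the 40 other arrays. Strain medians outside C3H/HeJ ranged from 7.97 in BALB/cJ to 8.49 in 129S1/SvImJ. The gap between the groups was wider than the whole range within either. The difference was -1.88 ± 0.0625 (adjusted p = 1.08e-28), and the C3H/HeJ mean was 3.69-fold lower. Mir152, the microRNA gene that lies within the Copz2 locus, had a difference of 0.06 (adjusted p = 0.817), although its signal was dim.

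Hbegf encodes heparin-binding EGF-like growth factor, a ligand of the EGF receptor family that is needed for normal heart valves and heart muscle. Its signal was 8.48 to 9.02 in C3H/HeJ with a median of 8.82. The highest of the other 40 arrays, from 129S1/SvImJ, reached 8.18, and the medians of the other strains ran from 7.17 in C57BL/6J to 7.72 in CBA/J. The difference was 1.38 ± 0.0984 (adjusted p = 5.87e-15), 2.60-fold, and every pairwise comparison was called.

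Ccdc73, a coiled-coil protein gene of little known function, and Them7, a thioesterase family gene, lie 4 places apart in gene order. Ccdc73 was dim in every strain, with 4.15 to 4.89 in C3H/HeJ (median 4.58) and at most 3.55 elsewhere. Its difference was 1.96 ± 0.103 (adjusted p = 3.40e-20). Them7 was 5.70 to 6.32 in C3H/HeJ (median 6.10) and at most 5.56 elsewhere, a difference of 1.16 ± 0.088 (adjusted p = 3.87e-14). Prrg4, which adjoins Ccdc73 and encodes a transmembrane protein with a Gla domain, was also higher, by 1.06 ± 0.169 (adjusted p = 2.17e-05). Its C3H/HeJ arrays ran from 5.30 to 7.37 and overlapped those of 129S1/SvImJ, which ran from 5.22 to 5.87. Wt1, a transcription factor of the epicardium that lies in the same stretch, was higher by 0.26 (adjusted p = 0.040). The 4 other genes measured in between or beside them were not called, namely Eif3m (-0.09, adjusted p = 0.808), Wt1os (-0.11, adjusted p = 0.698), Qser1 (0.07, adjusted p = 0.834) and Rcn1 (0.01, adjusted p = 0.966). Immp1l, a peptidase of the mitochondrial inner membrane 4 places beyond Them7, was lower by 0.55 (adjusted p = 0.000818). Signal can thus differ between strains at several genes of a stretch and not at others among them.

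Ppil1 and BC004004 are another adjoining pair. Ppil1, a cyclophilin-type isomerase of the spliceosome, was 7.71 to 8.16 in C3H/HeJ (median 7.93) and at most 7.52 in the others, where CBA/J came nearest with a median of 7.30. The difference was 1.12 ± 0.0807 (adjusted p = 6.11e-15). BC004004 was higher by 0.71 and Mtch1, a mitochondrial outer membrane protein gene 3 places from Ppil1, by 0.41. Pi16, which lies between them and is a marker of fibroblasts, had a difference of -0.20 (adjusted p = 0.275).

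Gabbr1, a subunit of the GABA-B receptor, was 7.27 to 8.53 in C3H/HeJ (median 7.64) and at most 7.19 elsewhere. The difference was 1.07 ± 0.114 (adjusted p = 1.43e-09). It is located in the class I region of the MHC, and Zfp57, a zinc finger regulator of imprinted genes 2 places away, was higher by 0.63.

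Sex chromosome genes made up 4 of the 16. Kdm5d, a histone demethylase gene of the Y chromosome, was 7.71 to 8.10 in C3H/HeJ (median 8.04) and at most 7.47 in the other strains. Its difference was 0.98 ± 0.0724 (adjusted p = 1.41e-14). Eif2s3y, the Y copy of the gamma subunit of translation factor eIF2, was 9.27 to 9.79 in C3H/HeJ (median 9.57) and at most 9.15 elsewhere, a difference of 0.94 ± 0.0936 (adjusted p = 1.92e-10). Uty, the Y copy of a histone demethylase gene that adjoins Eif2s3y, was higher by 0.94 (adjusted p = 4.09e-10), but C57BL/6J came close to C3H/HeJ there, with medians of 8.62 and 8.79. Not all Y genes on the array followed. Zfy1 (0.12, adjusted p = 0.693), Usp9y (-0.05, adjusted p = 0.857), Zfy2 (-0.17, adjusted p = 0.477) and Sry (0.07, adjusted p = 0.732) were not called, and apart from Sry they were dim in all strains.

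On the X chromosome, Hccs, the enzyme that attaches haem to cytochrome c in mitochondria, was 10.19 to 10.51 in C3H/HeJ (median 10.31) and at most 9.91 elsewhere. CBA/J was nearest, with a median of 9.80, and its replicate 1 was far below the rest of that strain at 8.86. The difference was 0.93 ± 0.073 (adjusted p = 8.99e-14). The adjoining gene Mid1, an E3 ubiquitin ligase of microtubules whose gene spans the pseudoautosomal boundary, was higher by 0.71 ± 0.0819 (adjusted p = 1.15e-08), with 6.90 to 7.46 in C3H/HeJ and at most 6.89 elsewhere. For Mid1, CBA/J was the lowest strain, with a median of 6.10, so the order of the other strains was not shared by the 2 neighbors. Amelx, Arhgap6 and Msl3, next on the other side of Hccs, had differences of 0.02, -0.05 and -0.02 and were not called.

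The remaining 4 genes differed by less than 1. Fig4, a phosphatase of endosomal phosphoinositides, was higher by 0.92 ± 0.109, and Ppp1r21, a protein of early endosomes, by 0.75 ± 0.0581. Akap9, which anchors protein kinase A and takes part in the potassium channel complex of heart muscle, was higher by 0.51 ± 0.106 (adjusted p = 0.00135). Its C3H/HeJ arrays lay within 8.10 to 8.27, while CBA/J replicate 1 was at 6.06 and the next strain, DBA/2J, had a median of 7.83. C3H/HeJ and DBA/2J were not called apart for Akap9 (adjusted p = 0.259). The adjoining gene Cyp51 was higher by 0.36. Xpr1, the phosphate exporter of the plasma membrane, was higher by 0.51 ± 0.0833 (adjusted p = 3.77e-05), with 8.37 to 8.62 in C3H/HeJ, and its lowest C3H/HeJ array lay only just above the highest of the other 40. For Xpr1 the comparisons with 129S1/SvImJ (adjusted p = 0.057) and BALB/cJ (adjusted p = 0.054) missed the threshold although no array overlapped.

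Several called genes with large differences were named after their values were seen, because they overlapped other strains on some arrays. Cenpf, a kinetochore protein gene of dividing cells, was 6.37 to 7.72 in C3H/HeJ (median 7.31), with other strain medians of 5.23 to 6.26. Its difference was 1.55 ± 0.143. Gcnt1, which builds branched O-glycans, was higher by 1.20 ± 0.0987, and Crnde, a long noncoding RNA gene, by 1.18 ± 0.117. Nr4a3, an orphan nuclear receptor that is induced rapidly by hormones and stress, was higher by 1.18 ± 0.166. Ndrg4, a gene of heart and brain, was higher by 1.15 ± 0.139, and Ccl11, which encodes the eosinophil attractant eotaxin, by 0.97 ± 0.132. Among genes that were lower, Hacd1, the dehydratase of very long chain fatty acid synthesis in muscle, missed separation only narrowly. Its C3H/HeJ arrays ran from 7.91 to 8.49 and the lowest of the 40 others, from C57BL/6J, was 8.45. The difference was -1.15 ± 0.10. Stard6, Smim3 and B3galt2 were lower by 1.10, 0.98 and 0.98.

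A further 4 genes were lower. Scd4, a stearoyl-CoA desaturase expressed mainly in heart, ran from 4.40 to 5.98 in C3H/HeJ (median 5.32). CBA/J was close, with a median of 5.70, and the 2 strains were not called apart (adjusted p = 0.281). The medians of the others ran from 6.43 in 129S1/SvImJ to 7.80 in C57BL/6J. The difference was -1.41 ± 0.214 (adjusted p = 8.18e-06). Mgst1, a microsomal glutathione transferase, was lower by 1.31 ± 0.229, but it was not called apart from CBA/J (-0.42, adjusted p = 0.344) or BALB/cJ (-0.82, adjusted p = 0.0953). Its call was lost with the 40 arrays as 1 group (adjusted p = 0.0628). The C3H/HeJ arrays ran from 6.11 to 8.24 for Mgst1, and the values above 8 were those of replicates 4 and 6. These arrays had the highest atrial marker means of C3H/HeJ, and also its highest white adipocyte and fibroblast marker means. Which of these the signal followed was not tested. On the arrays with an atrial mean under 8 alone, a choice made after the data were seen, Mgst1 differed by -1.60 (adjusted p = 5.23e-11). Mt2, a metallothionein that binds zinc and copper, was lower by 0.76 ± 0.136. Akr1c14, a hydroxysteroid dehydrogenase, was lower by 0.74 ± 0.153.

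The largest difference of all genes that were lower was not particular to C3H/HeJ. Hsd17b7, a reductase of cholesterol synthesis, ran from 5.01 to 5.83 in C3H/HeJ and from 4.98 to 5.68 in 129S1/SvImJ. The medians of the remaining strains were 7.41 in C57BL/6J, 8.28 in DBA/2J, 8.54 in BALB/cJ and 9.12 in CBA/J. C3H/HeJ and 129S1/SvImJ were not called apart (difference 0.17, adjusted p = 0.821), and the C3H/HeJ difference from the mean of 5 was -2.28 ± 0.184 (adjusted p = 2.37e-13). Gbp2b, an interferon-induced GTPase, split the strains the other way. It was 5.96 to 6.46 in C3H/HeJ, with medians of 5.95 in BALB/cJ and 5.74 in 129S1/SvImJ, and at most 5.04 in the other 3. Gabrg3, a subunit of the GABA-A receptor, was shared with CBA/J, with medians of 6.12 and 6.20 against 4.09 to 5.19 in the others.

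**Figure D2:**
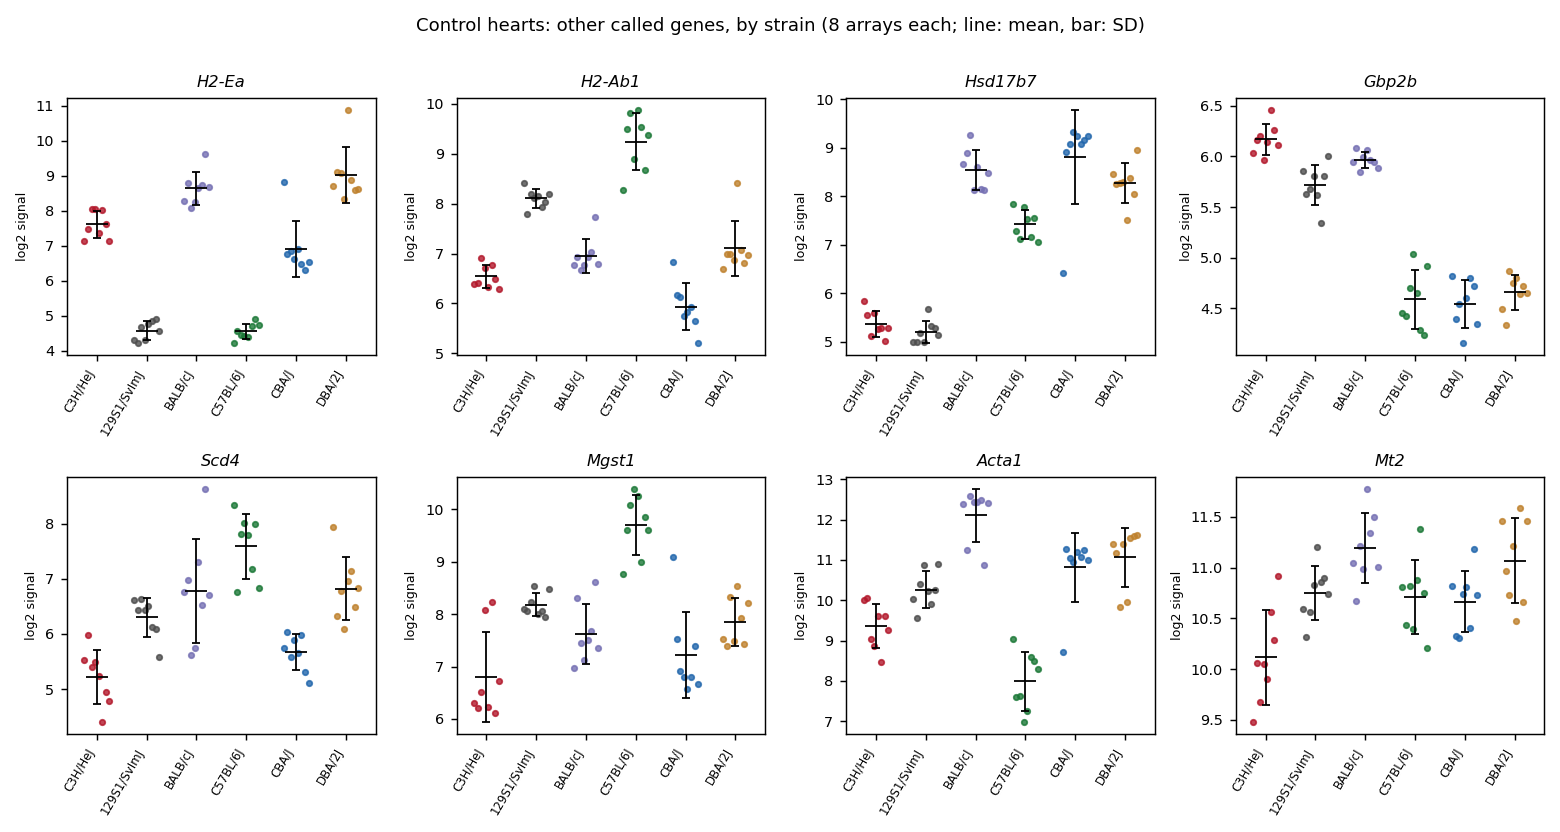
Log2 signal (vertical axis of each panel) of 8 called genes in the control hearts of the 6 inbred strains; each point is 1 mouse, the horizontal line is the strain mean and the bar its SD. Hsd17b7 is low in C3H/HeJ and 129S1/SvImJ alike, H2-Ea is near 4.5 in 129S1/SvImJ and C57BL/6J, and Scd4 and Mgst1 have their lowest means in C3H/HeJ.

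MHC class II genes, which present peptides to helper T cells, were the list with the largest share of calls among the 31 lists. Of 10 members measured, 5 were lower in C3H/HeJ (50%) and 1 higher, against 2.17% and 2.13% of all genes, and the median difference was -0.35 beside -0.01 over all genes. The 5 were H2-Ab1 (-0.93), H2-Aa (-0.74), H2-Eb1 (-0.69), the invariant chain Cd74 (-0.63) and the peptide loading gene H2-DMa (-0.44). C3H/HeJ was not the lowest strain for any of them, because the CBA/J mean was lower each time. The CBA/J and C3H/HeJ means were 6.13 and 6.82 for H2-Aa, 6.38 and 6.63 for H2-Eb1, and 4.91 and 4.94 for H2-DMa. They were 6.23 and 7.02 for Cd74, which was called higher in C3H/HeJ than in CBA/J (adjusted p = 0.0158). H2-Aa was called against C57BL/6J alone. For H2-Ab1 the medians were 6.46 in C3H/HeJ, 5.87 in CBA/J, 6.86 in BALB/cJ, 6.98 in DBA/2J, 8.14 in 129S1/SvImJ and 9.44 in C57BL/6J. Its difference was called against 129S1/SvImJ, C57BL/6J and, in the other direction, CBA/J. H2-Ea, which is silent on the b type, had medians of 4.62 in 129S1/SvImJ and 4.50 in C57BL/6J against 7.55 in C3H/HeJ, 6.68 in CBA/J, 8.66 in BALB/cJ and 8.79 in DBA/2J. The difference from the mean of 5 was 0.87 ± 0.200 (adjusted p = 0.00401), so C3H/HeJ was above the average although 2 strains were higher still. In the CR hearts, 1 of these 10 genes was called lower, H2-DMa, and H2-Ea was called higher (median difference of the list -0.17), where 5.32% of all genes were called lower and 5.65% higher. Class II genes are carried by immune cells. By limma 0 of the 13 macrophage markers were called (3 at an unadjusted p under 0.05) and 0 of the 12 lymphocyte markers (0 at an unadjusted p under 0.05), with median differences of 0.07 and -0.22. The mean of the lymphocyte markers lay between 4.54 and 4.86 in C3H/HeJ, and it reached 8.12 in DBA/2J replicate 5 and 7.19 in BALB/cJ replicate 7. Without these 2 arrays, CBA/J replicate 1 and C3H/HeJ replicate 6, H2-Ab1 differed by -0.87, H2-Eb1 by -0.64, H2-DMa by -0.41 and H2-Ea by 0.95, and all 4 were still called. With the 40 arrays as 1 group these calls were lost (adjusted p = 0.382, 0.374, 0.163 and 0.712).

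The remaining immune lists showed few calls. Their calls, and those of the lists that follow, rest on the mean of strain means. With the 40 arrays as 1 group, the list members named here and in the next paragraphs on lists lost their calls (adjusted p = 0.0577 for Tap2 to 0.602 for Xaf1). The exceptions were Cacna1g, Grk5, Hk2, Hsd17b7, Col6a2 and Col6a3, which held, and Col15a1, which was not recomputed. By limma 0 of 14 class I genes were called (3 at an unadjusted p under 0.05), 0 of 24 genes of Toll-like receptor signaling (4) and 0 of 9 interferon-induced GTPases (0), a list that does not hold the called Gbp2b. The smallest p-values there were those of H2-T24 (0.34, adjusted p = 0.057), Tlr1 (-0.27, adjusted p = 0.070) and Gbp11 (0.17, adjusted p = 0.561). Among 4 genes of the Ifi200 family of DNA sensors, Ifi202b (-0.78 ± 0.136) and Ifi203 (-0.51 ± 0.157) were lower. Both adjoin each other in gene order. The call of Ifi203 was lost without any 1 of C3H/HeJ replicates 2, 3, 4 and 6 or BALB/cJ replicate 7, and on the arrays with an atrial mean under 8 Ifi202b differed by -0.42. Of 22 complement genes, C7 was lower (-1.08 ± 0.206) and Cfp, which encodes properdin, was higher (0.41 ± 0.123). C7 was not particular to C3H/HeJ, since the CBA/J median was 6.09 against 6.70 in C3H/HeJ. Tap2, a peptide transporter for class I molecules, was higher by 0.34 ± 0.0889. Of 25 interferon response genes, Xaf1 was lower by 0.31. C3H/HeJ was not the lowest strain for Xaf1, with a mean of 6.16. The means were 6.10 in CBA/J, 6.13 in C57BL/6J, 6.15 in BALB/cJ, 6.59 in 129S1/SvImJ and 7.38 in DBA/2J.

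The genes for which C3H/HeJ is best known were not called. Tlr4 was 7.29 to 8.31 in C3H/HeJ (median 7.55), within the 6.56 to 8.56 of the other strains, with a difference of -0.04 (adjusted p = 0.929). Pde6b (0.04, adjusted p = 0.842), Gria4 (-0.15, adjusted p = 0.597) and Abcc6 (0.03, adjusted p = 0.879) were also not called. Pde6b and Gria4 were dim in all strains. Nnt, which is deleted in part in C57BL/6J, had a mean of 9.52 there and 10.8 in C3H/HeJ, and its difference from the mean of 5 was 0.20 (adjusted p = 0.688).

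Genes of the heart muscle cell had few calls. Of 29 sarcomere genes, Tnnt2 (cardiac troponin T, 0.22 ± 0.0589) and Nebl (nebulette, 0.33 ± 0.0963) were higher and Acta1, the skeletal form of alpha actin, was lower (-1.08 ± 0.248). Tnnt2 was not called apart from 129S1/SvImJ, BALB/cJ or CBA/J (adjusted p = 0.914, 0.849 and 0.0539). Nebl was not called apart from 129S1/SvImJ, BALB/cJ or C57BL/6J (adjusted p = 0.0978, 0.0833 and 0.975). Acta1 ran from 8.48 to 10.04 in C3H/HeJ, below every BALB/cJ array (10.86 to 12.58) and with medians of 7.96 in C57BL/6J and 11.39 in DBA/2J, so C3H/HeJ was not the lowest strain. Of 23 calcium handling genes, Camk2d, the calmodulin kinase of the heart, was higher (0.42 ± 0.104). Of 28 ion channel genes, Cacna1g, a T-type calcium channel of pacemaker cells, was higher (0.50 ± 0.105) and Kcnj12, an inward rectifier potassium channel, was lower (-0.25 ± 0.0765). Nebl differed by 0.22 with the atrial and adipocyte marker levels in the model (adjusted p = 0.202) and by 0.17 on the arrays with an atrial mean under 8 (adjusted p = 0.0828), and the call of Kcnj12 was lost in both (adjusted p = 0.0581 and 0.0834). The medians of these 3 lists were 0.20, 0.19 and 0.16 beside -0.01 over all genes. On the arrays with an atrial mean under 8 they were 0.11, 0.13 and 0.13. On those arrays 4, 7 and 4 members were called higher and 1, 2 and 1 lower. Of all 19938 genes, 910 were higher and 767 lower there. In the CR hearts 3, 9 and 7 members were called higher and 1, 0 and 0 lower, where 5.65% and 5.32% of all genes were. The 11 ventricular markers, of which several are on these lists, had a median of 0.17 in control and 0.03 in CR hearts. By limma 1 of them was called in control hearts (Tnnt2), and 4 were higher at an unadjusted p under 0.05. Whether the lists followed ventricular content was not tested. Of 16 adrenergic and cholinergic genes, the receptor kinase Grk5 (0.49 ± 0.125) and the G protein regulator Rgs2 (0.53 ± 0.161) were higher. Grk5 was not called apart from BALB/cJ (adjusted p = 0.496). C3H/HeJ was not the highest strain for Rgs2, with a mean of 8.15 against 8.33 in C57BL/6J. It was not called apart there from C57BL/6J or 129S1/SvImJ (adjusted p = 0.579 and 0.895). Nppa, the atrial natriuretic peptide, had a difference of -1.01 ± 0.320 that missed the threshold (adjusted p = 0.059), and its C3H/HeJ arrays ran from 9.86 to 13.48.

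Collagens and other matrix genes formed the list with the most calls in the higher direction among the 31 lists. Of 36 members, 5 were higher (13.9%, against 2.13% of all genes) and 0 lower, namely Col6a3 (0.64 ± 0.0718), Col6a2 (0.31 ± 0.0666), Col15a1 (0.31 ± 0.0887), Col1a2 (0.29 ± 0.0801) and the laminin chain Lama2 (0.36 ± 0.0882). Col6a3 was 6.83 to 7.33 in C3H/HeJ (median 7.00) and at most 6.87 elsewhere, where CBA/J came closest with a median of 6.69. It was called against each strain. The others were not called apart from BALB/cJ, with adjusted p of 0.813 (Col6a2), 0.926 (Lama2), 0.868 (Col15a1) and 0.658 (Col1a2). The BALB/cJ mean was above that of C3H/HeJ for Col1a2 (8.01 against 7.88) and Col15a1 (7.61 against 7.53). Lama2 was also not called apart from 129S1/SvImJ (adjusted p = 0.607). The call of Col1a2 was lost without C3H/HeJ replicate 4 (adjusted p = 0.115) or replicate 6 (adjusted p = 0.118). In the CR hearts 12 of the 36 were called higher and 0 lower, where 5.65% of all genes were higher, and the list medians were 0.13 in control and 0.23 in CR hearts. Of the 12 fibroblast markers, 1 was called (Col1a2, higher), and the mean of these markers was 8.11 to 8.85 in C3H/HeJ against 7.84 to 8.88 in the other strains together.

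Metabolic lists had from 0 to 4 calls each. Of 25 genes of glycolysis and glucose use, 3 were higher (12%, against 2.13% of all genes) and 0 lower, which were the hexokinase Hk2 (0.69 ± 0.180), Pfkfb2, the heart form of the enzyme that sets fructose bisphosphate levels (0.63 ± 0.186), and pyruvate kinase Pkm (0.41 ± 0.112). C57BL/6J had the lowest mean for all 3. Pairwise, Hk2 was called against C57BL/6J alone. Pfkfb2 was not called apart from BALB/cJ, CBA/J or DBA/2J (adjusted p = 0.117, 0.785 and 0.328). Pkm was not called apart from 129S1/SvImJ or BALB/cJ (adjusted p = 0.454 and 0.530). The call of Pfkfb2 was lost with the atrial and adipocyte marker levels in the model (0.49, adjusted p = 0.113), and it differed by 0.41 on the arrays with an atrial mean under 8. By limma 0 of the 21 fatty acid oxidation genes were called (5 at an unadjusted p under 0.05), with a median of 0.02, and of 57 respiratory chain genes 1 was (Cox7a2, 0.35 ± 0.0718). Of 20 PPAR alpha targets, Acot2, a mitochondrial thioesterase, was lower by 0.51 ± 0.152. Without C3H/HeJ replicate 6, the array at 9.09, its difference was -0.32 (adjusted p = 0.230), and the call was also lost with the marker levels in the model (adjusted p = 0.0533) and on the arrays with an atrial mean under 8 (-0.36, adjusted p = 0.0967). Of 37 genes of glutathione and NRF2 defense, Mgst1, Gstp1 (-0.25 ± 0.0645) and catalase (Cat, -0.32 ± 0.0930) were lower and glyoxalase Glo1 (0.37 ± 0.0649) was higher. Glo1 was not called apart from 129S1/SvImJ, CBA/J or DBA/2J (adjusted p = 0.747, 0.391 and 0.908). Cat differed by -0.19 with the marker levels in the model (adjusted p = 0.221) and by -0.17 on the arrays with an atrial mean under 8 (adjusted p = 0.195). Of 19 cholesterol synthesis genes, Hsd17b7 and Ebp were lower and Cyp51 higher. Of 29 genes of iron and haem, the iron exporter Slc40a1 (0.48 ± 0.107) and the haem synthesis enzyme Alad (0.48 ± 0.0774) were higher and ceruloplasmin, Cp (-0.47 ± 0.0775), was lower. Alad was shared with other strains, because C57BL/6J alone was low with a mean of 8.69 against 9.91 to 10.7 in the rest. Cp was not called apart from BALB/cJ, CBA/J or DBA/2J (adjusted p = 0.404, 0.297 and 0.682). Slc40a1 was not called apart from 129S1/SvImJ (adjusted p = 0.963). Of 24 heat shock genes, Hspa2 and Hspb1 were lower, and of 28 genes of growth factor and insulin signaling, Igfbp3 (-0.58 ± 0.158) and Socs2 (-0.41 ± 0.0987) were. Of 24 cell cycle genes, 0 were called by limma (2 at an unadjusted p under 0.05), and Cenpf was not on that list.

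**Figure D3:**
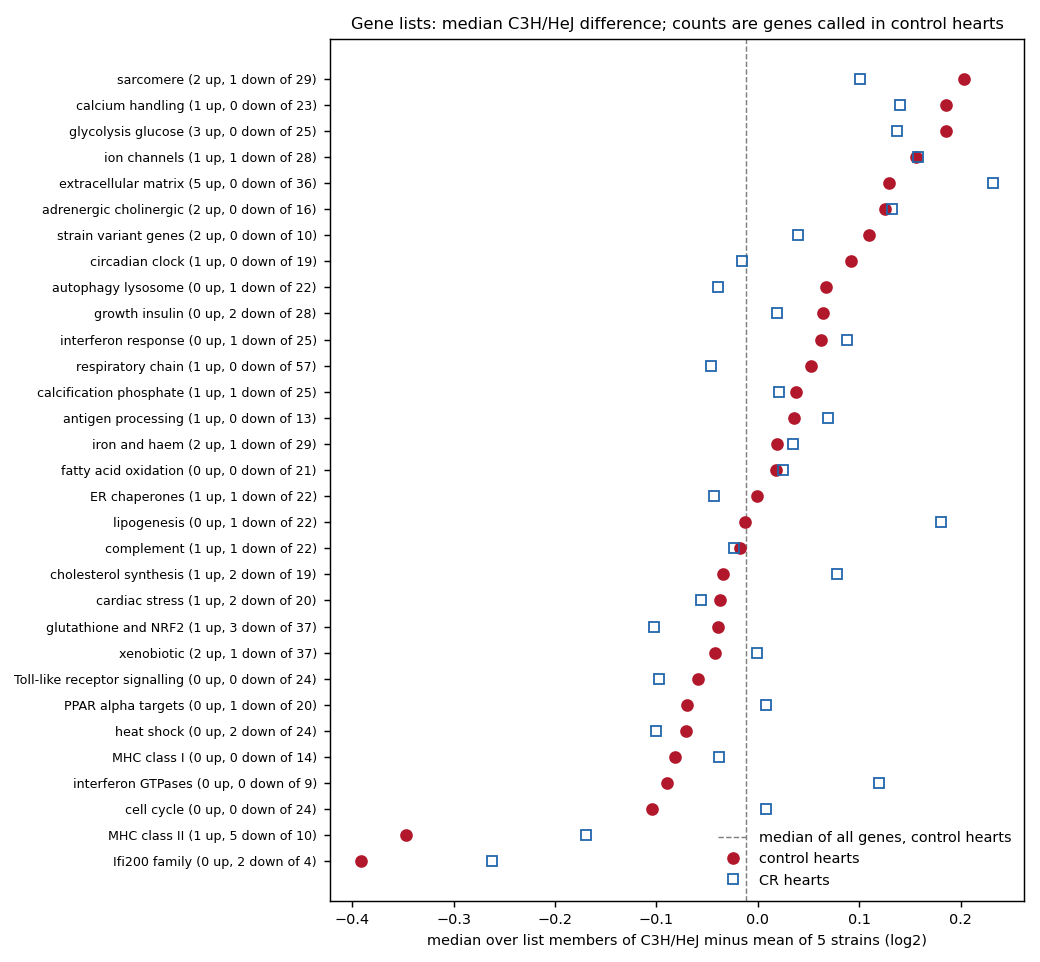
Median C3H/HeJ difference (horizontal axis, log2) over the measured members of 31 gene lists, in control hearts (red circles) and in CR hearts (open blue squares); the labels give how many members were called higher and lower in control hearts, and the dashed line is the median of all genes in control hearts. MHC class II (5 lower of 10) and the 4 Ifi200 genes lie farthest to the left, and the extracellular matrix list has 5 genes higher and 0 lower.

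How far the result rests on any 1 of the comparison strains can be read from the pairwise comparisons, which share the same 8 C3H/HeJ arrays. Against DBA/2J 1007 genes were called (5.05%), against BALB/cJ 1184 (5.94%), against 129S1/SvImJ 1547 (7.76%), against CBA/J 2100 (10.5%) and against C57BL/6J 5162 (25.9%). The count against CBA/J fell to 1634 without its replicate 1. The arrays of C57BL/6J included 6 of 8 with an atrial marker mean above 8, against 3 of 8 in C3H/HeJ. The count against C57BL/6J was 3924 once atrial and white adipocyte marker levels entered the model. It was 5996 on the arrays with an atrial mean under 8 alone, a choice made after the data were seen. Those arrays included 2 of C57BL/6J and 5 of C3H/HeJ. The 2 alternatives moved the count in opposite directions, and the cause was not tested. Each strain was the farthest from C3H/HeJ at some of the 856 called genes, from 132 for BALB/cJ to 242 for C57BL/6J.

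**Figure D4:**
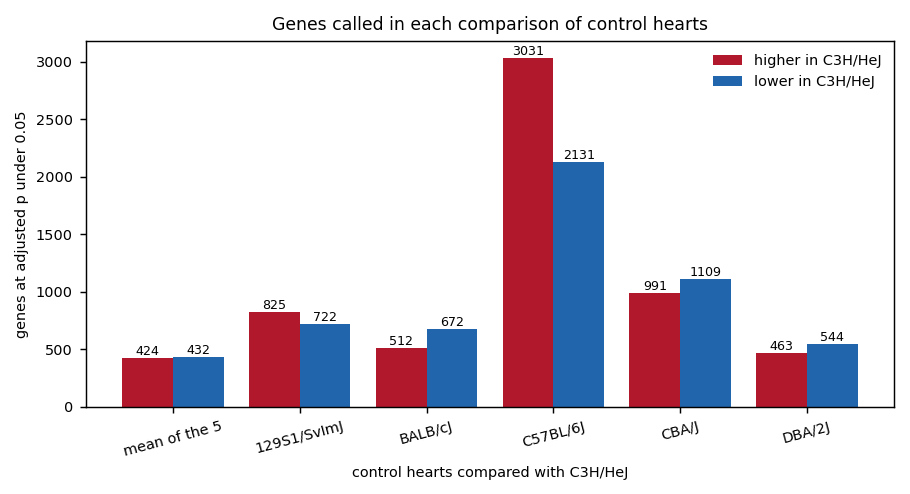
Number of genes called at an adjusted p under 0.05 (vertical axis), higher (red) or lower (blue) in C3H/HeJ control hearts, against the mean of the 5 strains and against each strain. The bars for C57BL/6J (3031 higher, 2131 lower) are the tallest, and those for DBA/2J (463 and 544) are the shortest of the 5 strains.

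Called genes were also examined by their place. Of 853 called genes that could be placed in gene order (assembly GRCm38.p6), 134 (15.7%) stood next to another called gene, and 8.30% of all 19855 placed genes did. In 94 cases the neighbor was called in the same direction and in 41 in the other. The longest run held 5 protocadherin genes, Pcdhb16 to Pcdhb20, which were lower by 0.28 to 0.49. Their sequences are much alike, and probe sets can share signal between them. Runs of 3 were formed by H2-Ab1, H2-Aa and H2-Eb1, by Kdm5d, Eif2s3y and Uty, by Srpk2, AI506816 and Pus7 (higher by 0.36, 1.23 and 0.40), by Cadm4, Zfp428 and Irgq (0.47, 0.49 and 0.29) and by the olfactory receptor genes Olfr872, Olfr39 and Olfr873 (-1.55, -1.18 and -0.45), which are not known as heart genes.

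The same contrast in the CR hearts measured the C3H/HeJ difference in other mice, whose CR rations differed between strains. The comparison used 47 CR arrays, without DBA/2J CR replicate 7. The correlation of that array with the average of its group was 0.262, against 0.980 for the next lowest of the 8. The study removed 1 outlying heart array and used only 7 CR mice of DBA/2J for heart. It does not give the replicate number. There 2186 genes were called (11%), and 520 when that array was kept. Of the 856 genes called in control hearts, 679 were called in the same direction in CR hearts, which is 79.3% of the control calls and 31.1% of the CR calls, and 850 had the same sign (99.3%, against 72.5% of all genes tested). The medians were 0.37 in control and 0.32 in CR hearts for the genes that were higher, and -0.34 and -0.33 for those that were lower. All 16 genes without overlap were called in the same direction in CR hearts, and 11 of them again had no overlap. Klk1b22 differed by 4.06 ± 0.176, Nme7 by 2.11 ± 0.0695, Hbegf by 1.48 ± 0.0803, Kdm5d by 0.98 ± 0.0554 and Copz2 by -1.83 ± 0.0461.

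**Figure D5:**
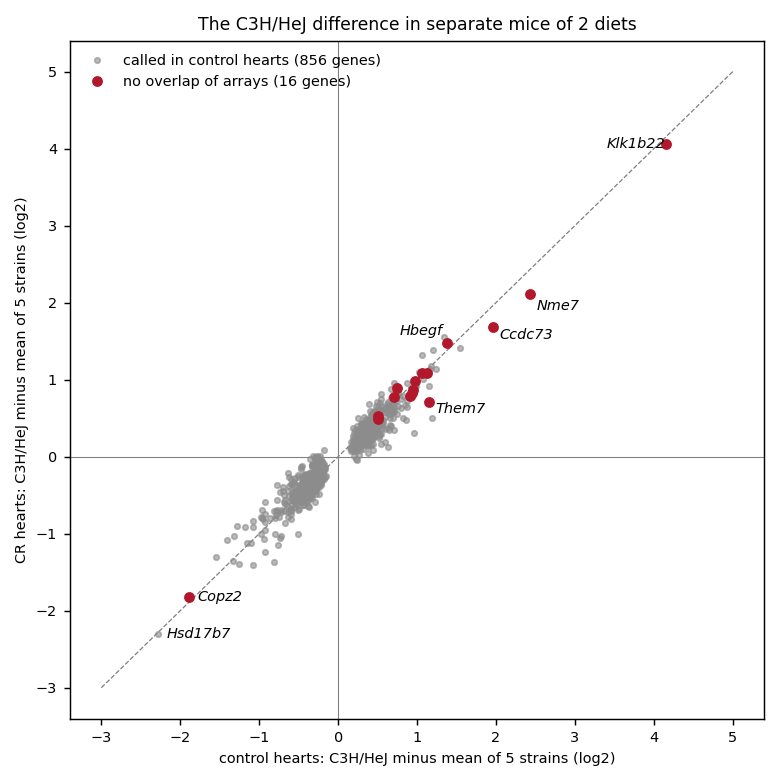
C3H/HeJ minus the mean of 5 strains in control hearts (horizontal axis, log2) and in CR hearts (vertical axis, log2) for the 856 genes called in control hearts; red points are the 16 genes whose control arrays did not overlap, and the dashed line marks equal values. The points lie along the dashed line from Hsd17b7 (-2.28 and -2.31) to Klk1b22 (4.16 and 4.06), and Them7 lies below it (1.16 and 0.71).

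Whether the C3H/HeJ difference had another size under CR was tested directly over 95 arrays. The CR rations were not equal across strains, so this contrast held ration together with strain. By limma 0 genes were called (0%), and 361 had an unadjusted p under 0.05. The smallest p-values belonged to Thap7 (-0.01 in control and -0.28 in CR hearts), Nr1d2, a repressor of the circadian clock (0.22 and -0.11), Them7 (1.16 and 0.71) and Dpep1, a membrane dipeptidase (-0.51 and -1.0), each with an adjusted p of 1.00. Ccl11, chosen after its values were seen, had a difference of 0.97 in control and 0.31 in CR hearts (unadjusted p = 0.00102).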

How the data were processed

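Control hearts of 6 inbred strains (48 arrays) were analyzed, with 47 CR hearts as a separate set. The authors made the deposited log2 signals with the gene-level RMA-Sketch method of Affymetrix Expression Console, which corrects background, applies quantile normalization across arrays and summarizes the probes of a set by median polish. The software version and the genome build were not given in the sources used here. Such normalization removes part of any shift of most genes, and remaining background compresses differences of dim genes. Probes follow 1 reference sequence, so a strain variant under a probe and a change in transcript cannot be told apart. An array has no read depth.

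Of 35556 probe sets, 21789 with 1 symbol were used, 1621 with several and 12146 unnamed were not. Where a gene had several (999 genes), the set with the largest mean over 112 arrays stood for it. Strain means were fitted in R 4.3.3 by the lmFit and eBayes functions of limma 3.58.1 (2-sided, Benjamini-Hochberg, 0.05), and the fit was tested on simulated data. Tables and plots used version 1.17.8 of the data.table package and Python 3.11.15 with matplotlib 3.10.9. Gene order came from RefSeq (GRCm38.p6), which matched 19855 genes. No coordinates are given.

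Members, 31 gene lists and 16 marker lists were chosen with earlier results of these data known. The rule for named genes took up to 12 called genes per direction without overlap, leaving out predicted genes and small RNA genes, 4 genes per list by smallest p, 6 known strain variant genes and 4 genes for the diet difference. Others were named after their values were seen. Alternatives covered normalization, dim genes (under the 40th percentile, log2 5.21), probe set choice, array weights, the variance model, marker covariates, the replicate block, the samples in the fit, the methods' t-test, and leaving out strains or arrays. Of these, 2 on atrial tissue were added after the data were seen.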

Additional observations from a re-analysis of the deposited data

Results flagged for a closer look

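In the C3H/HeJ control group of 8 arrays, the lowest and the highest array of each named gene were compared with the rest by Dixon's ratio, the gap to the nearest array divided by the range, against its 95% critical value for 8 samples. Chance gives such a value in about 1 in 20 groups, and 4 of 95 genes passed it. Tlr4 was 8.31 in replicate 3 and 7.29 to 7.69 in the others (ratio 0.603). Kcnj12 was 5.00 in replicate 3 and at least 5.43 elsewhere (0.536). Nmrk2, a nicotinamide riboside kinase, was 7.08 in replicate 6 and at most 6.57 elsewhere (0.596). Acot2 was 9.09 in replicate 6 and at least 10.4 elsewhere (0.748). The mean of the endothelial markers was 8.82 in replicate 1 and at most 8.68 elsewhere (0.640). The correlation with the other arrays of the group was 0.985 in replicate 6, the array with the highest atrial marker mean, and at least 0.991 elsewhere (0.550).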

How the results depend on the processing

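Depth does not apply to arrays, and their number, 8 per strain, and dim signals limit what could be called. The causes of the changes below were not tested. Of the 856 genes called against the mean of the 5 strains, 711 were among 823 called after another quantile normalization and 797 among 813 after centring each array on its median, which moved the median of all genes by 0.0103 and -0.00501. With array weights 2793 genes were called, among them all 856, and 3764, 3401, 2838 and 3514 against 129S1/SvImJ, BALB/cJ, DBA/2J and in the CR hearts. With the 40 arrays as 1 group 213 were called, and by the methods' t-test 801 at their unadjusted threshold and 209 after Benjamini-Hochberg adjustment.

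Leaving out C57BL/6J raised the genes without overlap from 16 to 27. Without CBA/J there were 31, and 1347 called genes. Leaving arrays out can only keep or raise the number of genes without overlap. Without the 4 arrays that stood apart (C3H/HeJ replicate 6, BALB/cJ replicate 7, CBA/J replicate 1 and DBA/2J replicate 5) 1416 were called. Without CBA/J control replicate 1 the counts were 1306, 1807 against BALB/cJ and 1569 against DBA/2J. Leaving out 1 of 11 arrays at a time (the 8 of C3H/HeJ, and BALB/cJ replicate 7, CBA/J replicate 1 and DBA/2J replicate 5) gave 645 to 1306 called genes, 1193 to 2217 against 129S1/SvImJ, 999 to 1807 against BALB/cJ, 4270 to 6544 against C57BL/6J, 1475 to 2296 against CBA/J, 845 to 1569 against DBA/2J, and 16 to 22 genes without overlap. Another pair of choices was made after seeing the data. Without C3H/HeJ replicates 4, 6 and 8, rich in atrial markers, 451 genes were called, 845 against 129S1/SvImJ and 752 against CBA/J, and 30 had no overlap. On arrays with an atrial marker mean under 8 alone, 1677 were called, 2536 against 129S1/SvImJ, 1887 against BALB/cJ and 1830 against DBA/2J, and 50 had no overlap. With DBA/2J CR replicate 7 the CR hearts gave 520. The difference between diets gave 0 called genes in each alternative run, by limma, with 361 at an unadjusted p under 0.05 in the reported comparison.

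The replicate numbers did not pair the arrays. The median correlation of deviations was 0.00297 for same-numbered arrays and 0.0109 for others, 36 of 120 same-numbered pairs were over 0.1, and 8 of 48 arrays correlated best with their own number. With the replicate block 802 genes were called, 777 of them among the 856.

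Over the named genes, 2603 values kept their direction and side of the threshold, 325 kept their direction and lost the call, and 6 values of Tlr4, Nnt and Abcc6 that were not called turned their sign. Of the 95 named genes, 46 lost the call with the 40 arrays as 1 group, 51 by the methods' t-test and 30 without the 3 atrial-rich C3H/HeJ arrays. The 16 genes without overlap kept direction and call in each alternative run for them, with Akap9 the weakest (adjusted p = 0.0301). They were picked for separation on these same arrays, so this was largely built in and adds no separate support. Leaving out 1 C3H/HeJ array ended the call of Rgs2 without any but replicate 5, of Kcnj12 and Pfkfb2 without any of 6 arrays, and of Acot2, Cat, Cfp, Ebp, Hspa2 and Igfbp3 without any of 5.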
